A study of Mus musculus with 6 samples.

Results

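Prx, Ncmap, Gldn, Pmp22, Pmp2, Cdh19 and Erbb3 are genes that Schwann cells, the glia of peripheral nerve, use to build and maintain myelin. They were taken by gene symbol from a table of 54532 genes, and each of the 7 symbols matched 1 row. RNA was taken from spinal cord, and every mouse was C57BL/6J with a spinal cord injury. Rotarod-trained mice, which had walked on a rotating rod, gave 3 libraries, and mice without that training gave 3. All 6 are labelled day 28, counted from training. The labels give no age, injury level or cord segment, and do not say whether a library is 1 mouse or a pool. The p-values therefore measure the spread between these libraries, which may be technical. The comparison asks whether rotarod training after the injury changed expression in the cord.

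In peripheral nerve and in the spinal roots each myelinating Schwann cell wraps 1 stretch of axon, whereas inside the cord oligodendrocytes make the myelin. Axonal neuregulin, read by the receptor pair ErbB2 and ErbB3, drives Schwann cell survival and myelin thickness, and the transcription factors Sox10 and Egr2 switch on the myelin genes. After a cord injury Schwann cells can enter the lesion from the roots, so their transcripts can appear in injured cord. Reads from attached roots would give the same transcripts, and the labels do not say how roots were handled.

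Total counts were 26092014, 16254344 and 15814104 reads in trained replicates 1, 2 and 3 and 15947347 to 18081949 in the untrained ones. Levels are given as CPM, read counts relative to library size after TMM scaling. At these depths 3 counts, the floor for an undetected gene, are 0.116 to 0.192 CPM. As a check of the tissue label, 8 Hox genes of the cord summed to 522 to 618 CPM in trained and 491 to 516 CPM in untrained libraries. Trained replicate 1, the deepest library, stood apart before any comparison of groups. In it 160 of 16909 genes tested (0.946%) lay more than 2-fold below every other library, against 11 to 33 genes in each of the other 5, and 4 of those 160 were Prx, Ncmap, Gldn and Pmp22.

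The peripheral myelin genes did not separate trained from untrained cord. No member passed edgeR's quasi-likelihood test over all genes (Benjamini-Hochberg adjusted p below 0.05), where 10 of 16909 genes did, a background of 0.0591%. In every one of the 6 members tested, trained replicate 1 had the lowest level of the 6 libraries. Trained replicates 2 and 3 lay within or near the untrained range. For Pmp22, Gldn and Erbb3, however, trained replicate 3 also lay below each untrained library. Over all genes tested trained replicate 1 was lowest in 3167 of 16909. The gap was widest for Prx and narrowest for Erbb3. Pmp2 had too few reads to be tested. In bulk tissue fewer cells of a type and less RNA per cell cannot be told apart.

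**Figure D1:**
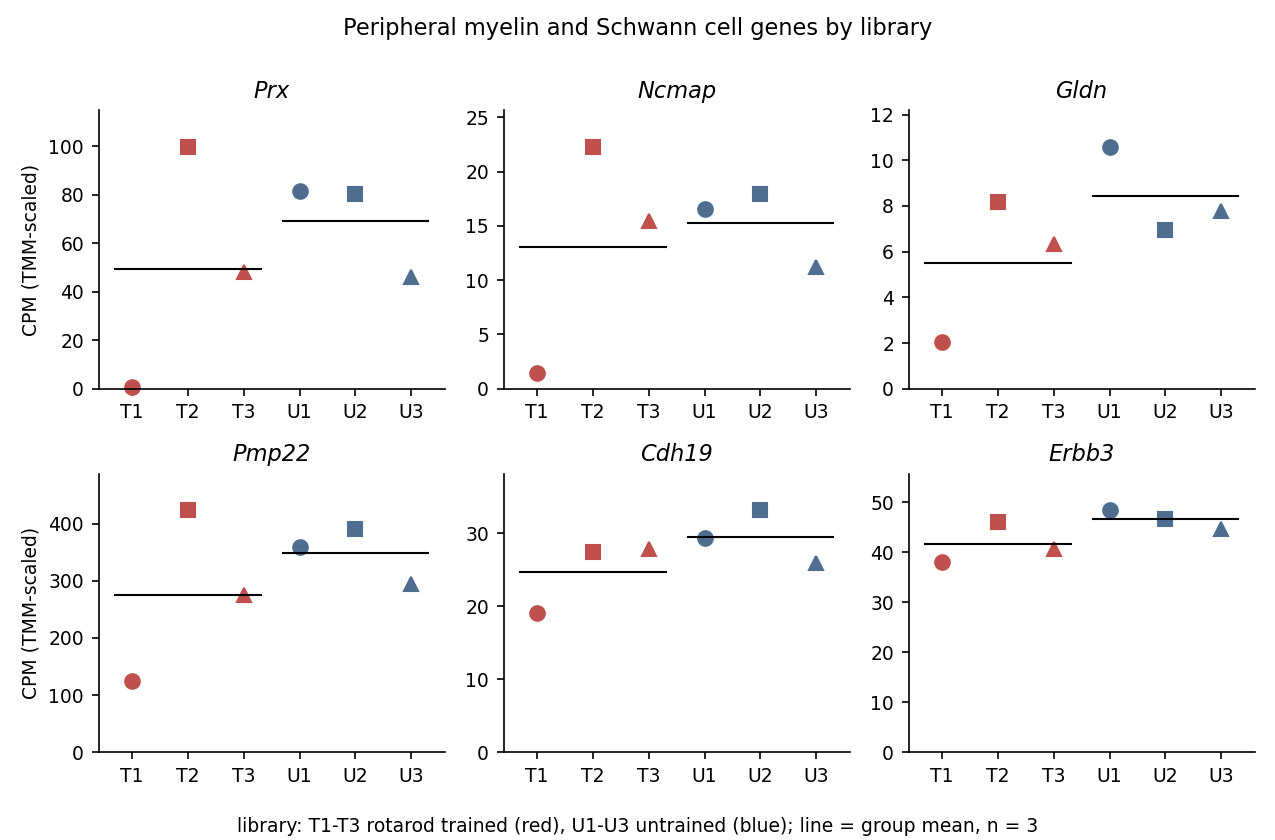
TMM-scaled CPM of the 6 tested members in each library, with trained replicates 1 to 3 (T1 to T3) in red, untrained replicates 1 to 3 (U1 to U3) in blue and the group mean as a line, each axis starting at 0. T1 is the lowest point in every panel, at 0.581 CPM for Prx and at 37.9 CPM for Erbb3, where the other 5 libraries lie at 40.7 to 48.5 CPM.

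Prx encodes periaxin, a scaffold of the Schwann cell membrane that ties myelin through Drp2 and dystroglycan to the basal lamina. The gene (ENSMUSG00000053198) spans chr7:27499324-27520214 on the plus strand of GRCm38. Prx was at 0.581, 99.7 and 48.2 CPM across trained replicates 1, 2 and 3, against 81.4, 80.1 and 46.0 CPM in untrained replicates 1, 2 and 3. Trained replicate 1 rested on 15 reads and was 79.2-fold below the next lowest library, whereas trained replicate 2 was the highest of all. The means were 49.5 ± 49.6 CPM for trained and 69.2 ± 20.1 CPM for untrained cord (SD, n = 3 each). On the log2 scale the fold change was -0.51 ± 1.34 (SE; edgeR adjusted p = 0.935). Without trained replicate 1 it was 0.09 ± 0.49 (edgeR adjusted p = 0.979), and over 13 alternative settings the adjusted p ran from 0.486 to 0.985. The groups overlapped with and without that library.

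Ncmap encodes a small membrane protein of noncompact peripheral myelin. It (ENSMUSG00000043924) spans chr4:135369576-135398227 on the minus strand. Ncmap was at 1.47, 22.3 and 15.5 CPM across trained replicates 1, 2 and 3, against 16.6, 18.0 and 11.2 CPM in the untrained ones. As with Prx, trained replicate 1 was far below the rest, here 7.64-fold below the next lowest library, and trained replicate 2 was highest. Its log2 fold change was -0.26 ± 0.96 (edgeR adjusted p = 0.956), and 0.30 ± 0.22 without trained replicate 1 (edgeR adjusted p = 0.755, with 0.586 to 0.989 over the 13 settings).

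Egr2 and Sox10 act at the promoters of peripheral myelin genes, so stretches upstream of the members were searched for motifs. Those printed, of Prx, Ncmap and Pmp22, are the windows that held a match. Each is the 250 bases before a transcript start in RefSeq (GRCm38.p6), read 5′ to 3′ on the strand of the gene, with motif letters in capitals.
Prx (chr7:27499074-27499323, plus strand): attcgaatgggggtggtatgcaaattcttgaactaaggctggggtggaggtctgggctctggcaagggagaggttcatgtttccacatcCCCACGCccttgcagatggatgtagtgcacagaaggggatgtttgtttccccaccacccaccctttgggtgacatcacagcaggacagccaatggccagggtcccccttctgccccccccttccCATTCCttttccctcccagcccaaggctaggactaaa
Ncmap, inner start (chr4:135385673-135385922, minus strand): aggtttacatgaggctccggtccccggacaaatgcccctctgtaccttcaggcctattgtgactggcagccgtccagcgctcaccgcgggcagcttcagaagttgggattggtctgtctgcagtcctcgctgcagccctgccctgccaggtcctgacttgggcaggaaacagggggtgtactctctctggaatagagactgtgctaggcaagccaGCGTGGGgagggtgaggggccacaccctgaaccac
Pmp22, first start (chr11:63128732-63128981, plus strand): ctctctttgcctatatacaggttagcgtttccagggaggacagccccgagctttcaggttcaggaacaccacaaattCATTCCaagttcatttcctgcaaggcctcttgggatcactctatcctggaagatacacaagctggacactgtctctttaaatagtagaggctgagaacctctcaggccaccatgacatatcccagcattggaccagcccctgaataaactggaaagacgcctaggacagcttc

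Searched on both strands were GCGTGGG, letters of the EGR consensus, the SOX core words ACAAAG and ACAATG, and the TEAD word GGAATG. No match overlapped another. RefSeq held 8 such windows for 4 members (Prx, Ncmap, Gldn and Pmp22). Only windows with a match are printed, and the others held none of these words. The words were picked with these sequences in view. The EGR word, which 4.3% of 32851 mouse windows of that length hold, was in the Prx window, on the opposite strand and starting 161 bases before the start site, and in the inner Ncmap window 35 bases before it. The TEAD word, in 12.6% of windows, was 37 bases before the Prx start and 173 bases before the first Pmp22 start. The SOX words, in 25.2% of windows, were in none of the 8, and the Gldn window held none of the words. Another spelling of the EGR site, GTGGGNG, which shares letters with GCGTGGG and was considered first, was in 2 of the 8 windows, those of Prx and of the outer Ncmap start, and in 28.1% of all windows. It is not marked in capitals. A match of letters describes the sequence and is not evidence of binding.

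Gldn encodes gliomedin, which Schwann cell microvilli release at the node of Ranvier, where it gathers the axonal adhesion proteins Nrcam and neurofascin and with them the sodium channels. The gene (ENSMUSG00000046167) spans chr9:54286486-54341786 on the plus strand. Gldn was at 2.05, 8.15 and 6.33 CPM across trained replicates 1, 2 and 3, against 10.6, 6.97 and 7.80 CPM in the untrained ones. Trained replicate 1 was lowest, 3.08-fold below the next library, and the highest value was in untrained replicate 1 rather than trained replicate 2. Its log2 fold change was -0.65 ± 0.52 (edgeR adjusted p = 0.737), and it stayed negative without trained replicate 1 at -0.23 ± 0.22 (edgeR adjusted p = 0.820, with 0.464 to 0.896 over the 13 settings).

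Pmp22 encodes a tetraspan protein of compact peripheral myelin that is also made by fibroblasts, endothelium and other cells. It (ENSMUSG00000018217) spans chr11:63128982-63159547 on the plus strand. Pmp22 was at 125, 424 and 276 CPM across trained replicates 1, 2 and 3, against 360, 391 and 295 CPM in the untrained ones. Trained replicate 1 was 2.20-fold below the next lowest library, on 3232 reads. Means were 275 ± 150 CPM for trained and 349 ± 49.2 CPM for untrained cord (SD, n = 3 each). Its log2 fold change was -0.34 ± 0.50 (edgeR adjusted p = 0.871), and 0.01 ± 0.22 without trained replicate 1 (edgeR adjusted p = 0.996, with 0.626 to 0.996 over the 13 settings).

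Cdh19, a cadherin of the Schwann cell lineage, and Erbb3, the neuregulin receptor, varied far less. Cdh19 (ENSMUSG00000047216, chr1:110888326-110977584, minus strand) was at 19.0, 27.4 and 27.8 CPM across trained replicates 1, 2 and 3, against 29.4, 33.2 and 25.9 CPM in the untrained ones. Its log2 fold change was -0.26 ± 0.15 (edgeR adjusted p = 0.597), and -0.10 ± 0.12 without trained replicate 1, which was 1.36-fold below the next lowest library.

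Erbb3 (ENSMUSG00000018166, chr10:128567523-128589652, minus strand) was at 37.9, 46.0 and 40.7 CPM across trained replicates 1, 2 and 3, against 48.5, 46.7 and 44.6 CPM in the untrained ones. The groups overlapped through trained replicate 2. The highest library was 1.28-fold above the lowest, against 172-fold for Prx. Erbb3 had the smallest p of the members, 0.0737 unadjusted in edgeR (adjusted p = 0.536, with 0.503 to 0.808 over the 13 settings), and its log2 fold change was -0.17 ± 0.09. With trained replicate 1 left out it was -0.11 ± 0.10.

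Pmp2 encodes the P2 protein, a fatty acid-binding protein of peripheral myelin. The gene (ENSMUSG00000052468) spans chr3:10179851-10183929 on the minus strand. It had 0, 2 and 0 reads in trained replicates 1, 2 and 3, against 1, 7 and 0 reads in the untrained ones, 10 reads in all. Pmp2 was therefore close to undetected in libraries that together held 32257 Pmp22 reads, and with so few reads a difference between groups could not be tested. In the 3 libraries with 0 reads the floor allows up to 0.116, 0.186 and 0.192 CPM.

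All 6 tested members had a negative log2 fold change, with a median of -0.30, against -0.01 over all genes tested. In edgeR 0 of the 6 had an unadjusted p below 0.05, where 10.0% of all genes tested did. DESeq2 and limma-voom also passed no member over all genes (backgrounds of 0.608% and 0.0710%). DESeq2 had 0 members and limma-voom 1, Gldn, at an unadjusted p below 0.05 (limma-voom adjusted p = 0.464 for Gldn). The backgrounds at that threshold were 4.28% of the 30350 genes to which DESeq2, with no filter on low counts, gave a p, and 10.4% of the 16909 tested in limma-voom. No member had groups that did not overlap, while 16.8% of all genes tested did. With trained replicate 1 left out, Gldn, Cdh19 and Erbb3 were negative and Prx, Ncmap and Pmp22 positive. The median was then -0.05, with 0 members past the test (background 0.122%) and 0 at an unadjusted p below 0.05 (background 8.22%).

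**Figure D2:**
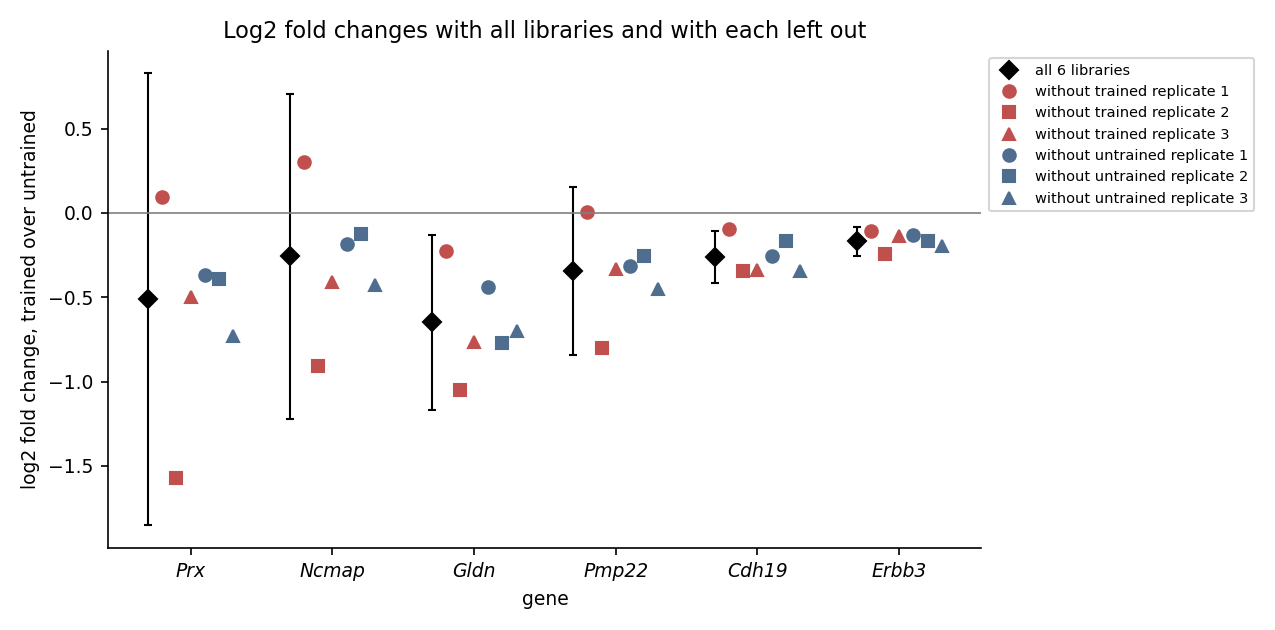
Log2 fold change, trained over untrained, of the 6 tested members with all libraries (black, bar = SE) and with each library left out in turn (red for a trained, blue for an untrained library). Leaving out trained replicate 1 gives the highest value for each gene, 0.30 for Ncmap and 0.09 for Prx, and leaving out trained replicate 2 the lowest for Prx, at -1.57.

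Compared per length of the gene, Pmp22 was the most abundant member, with a median of 153 RPKM (CPM per kilobase of the gene's length) over the untrained libraries. Prx followed at a median of 14.4 RPKM. Erbb3, Ncmap and Cdh19 were next at medians of 7.76, 7.43 and 6.87 RPKM, and their untrained ranges overlapped, so their order is not resolved. Gldn was at 1.67 and Pmp2 at 0.0388 RPKM. In trained replicate 1 the order was different: Pmp22 was at 53.2, Erbb3 at 6.31, Cdh19 at 4.44, Ncmap at 0.661, Gldn at 0.441 and Prx at 0.104 RPKM.

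Ratios within a library set Ncmap and Pmp22 against Prx. For every 100 Prx reads there were 22.4 and 32.1 Ncmap reads in trained replicates 2 and 3, and 20.3, 22.4 and 24.4 in untrained replicates 1, 2 and 3. In trained replicate 1 the same ratio was 253, on 38 Ncmap and 15 Prx reads. Pmp22 gave 4.26 and 5.72 reads per Prx read in trained replicates 2 and 3, against 4.42, 4.88 and 6.41 in the untrained libraries. It gave 215 in trained replicate 1. Both ratios were therefore highest in trained replicate 1, the library with the lowest CPM of all these genes. As Prx had the widest gap there, the ratios restate the CPM values and are no separate result.

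Other genes of myelinating Schwann cells were also low in trained replicate 1. Of 10 such genes, all tested, 9 were lowest in trained replicate 1, 0 passed the test in either direction and the median log2 fold change was -0.21, or 0.19 without trained replicate 1. Cldn19, the tight junction protein of Schwann cell incisures, was at 0.387, 18.5 and 14.5 CPM across trained replicates 1, 2 and 3, against 15.5, 15.6 and 10.2 CPM in the untrained ones. Egr2, the myelin transcription factor, was at 2.75, 6.11 and 5.90 CPM, against 9.72, 5.95 and 5.88 CPM in untrained replicates 1, 2 and 3. Egr2 is also an activity-induced gene of neurons.

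Pou3f1, a factor of the promyelinating Schwann cell that neurons also express, was the exception, at 16.7, 20.9 and 23.1 CPM across trained replicates 1, 2 and 3, against 14.6, 14.4 and 12.8 CPM in the untrained ones. Each trained library lay above each untrained one, as in 8.13% of all genes tested, and its log2 fold change of 0.53 ± 0.13 did not pass over all genes (edgeR adjusted p = 0.223).

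The genes most like the members were found by correlating log2 CPM of every other gene with the mean of the 6 tested members over the 6 libraries. Of the 5 highest, 4 are given here: Ogn, Dhh, Cldn19 and Prox2, with Pearson's r of 0.995, 0.995, 0.993 and 0.991. These values rest on trained replicate 1, and over the other 5 libraries they were 0.895, 0.969, 0.812 and 0.755. Dhh, the hedgehog ligand of Schwann cells, was at 0.387, 5.003 and 3.10 CPM across trained replicates 1, 2 and 3, against 4.42, 4.87 and 2.68 CPM in the untrained ones. Ogn, a proteoglycan of connective tissue, was at 1.47, 63.4 and 29.1 CPM, against 43.1, 37.7 and 29.5 CPM in untrained replicates 1, 2 and 3. The measure describes these libraries only.

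Markers of other tissues that adjoin the cord moved with the members in trained replicate 1, and their part in the result was not tested. It had the lowest level of the 6 libraries in 13 of 13 fibroblast and leptomeningeal genes, whose summed level was 1005 to 1959 CPM in trained and 1429 to 1781 CPM in untrained libraries. Dcn, which encodes decorin, a fibroblast proteoglycan, stood at 10.7, 80.2 and 79.7 CPM across trained replicates 1, 2 and 3, against 96.2, 62.5 and 58.7 CPM in the untrained ones. Of 7 perineurial genes 5 were lowest in trained replicate 1, with sums of 275 to 294 CPM in trained and 284 to 377 CPM in untrained libraries, and Krt19 had 0 reads there. The smallest p of the fibroblast list were those of Lum, at 2.09, 8.28 and 8.56 CPM across trained replicates 1, 2 and 3 and 12.9, 8.23 and 7.73 CPM in the untrained ones, and of Pdgfrb (log2 fold change -0.21 ± 0.20). Those of the perineurial list were Slc2a1, a glucose transporter that endothelium also makes (-0.42 ± 0.09, edgeR adjusted p = 0.191), and Itgb4 (0.23 ± 0.09, edgeR adjusted p = 0.425), both without overlap of the groups. None of these 20 genes passed the test. Without trained replicate 1 the fibroblast median log2 fold change was 0.33, against -0.09 with all libraries.

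By the median over the list, sensory ganglion neuron genes varied in another pattern, low in trained replicates 1 and 2 and in untrained replicate 1. Avil, the advillin gene of sensory neurons, was at 0.697, 0.309 and 5.34 CPM across trained replicates 1, 2 and 3, against 0.765, 10.4 and 3.90 CPM in the untrained ones. It was therefore low in trained replicate 2 and untrained replicate 1, where Prx stood at 99.7 and 81.4 CPM. The nociceptor sodium channel gene Scn10a had 0 reads in trained replicate 1 and in untrained replicate 1. The 13 ganglion genes summed to 282 to 316 CPM in trained and 292 to 388 CPM in untrained libraries, and 0 of the 11 tested passed, with -1.12 as the median on the log2 scale (-0.84 when trained replicate 1 was left out). Ret, a receptor that motor neurons also make, was at -0.11 ± 0.07. Ret, Prph and Calca had the highest levels of the list and made up most of its sum. The Hox gene of lumbosacral cord Hoxd10 was at 0.620, 9.70 and 0.372 CPM across trained replicates 1, 2 and 3, against 2.95, 7.69 and 4.79 CPM in the untrained ones, so trained replicates 1 and 3 were both low in it while only the first of them was low in Prx.

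**Figure D3:**
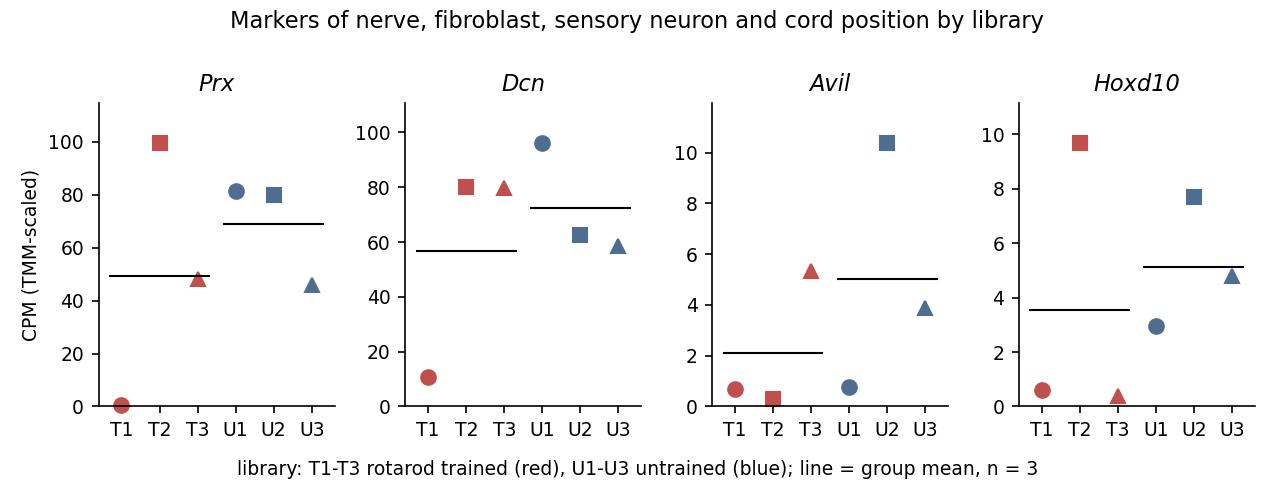
TMM-scaled CPM of Prx, the fibroblast gene Dcn, the sensory neuron gene Avil and the caudal position gene Hoxd10 in trained libraries (T1 to T3, red) and untrained libraries (U1 to U3, blue), with group means as lines and axes starting at 0. T1 is lowest for Prx and Dcn, whereas Avil is also below 1 CPM in T2 and U1, and Hoxd10 is lowest in T3.

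The oligodendrocyte lineage of the cord did not share the low value. Oligodendrocyte genes summed to 6066 to 6954 CPM in trained and 5668 to 6549 CPM in untrained libraries, and trained replicate 1 was lowest in 0 of 10 of them. Oligodendrocyte precursor genes summed to 906 to 968 CPM and 894 to 1005 CPM, with trained replicate 1 lowest in 2 of 9. Sox10, the transcription factor that Schwann cells share with oligodendrocytes, was at 200, 191 and 215 CPM across trained replicates 1, 2 and 3, against 161, 186 and 185 CPM in the untrained ones (log2 fold change 0.19 ± 0.08, edgeR adjusted p = 0.462). For every 100 Sox10 reads there were 19.0, 24.1 and 19.0 Erbb3 reads in trained replicates 1, 2 and 3, and 30.1, 25.2 and 24.1 in the untrained ones. Trained replicates 1 and 3 were level in that ratio. Of 13 Schwann lineage and satellite glia genes tested, Sox10 included, 0 passed, and Cryab was at 0.14 ± 0.08. Their median log2 fold change was 0.11 with and without trained replicate 1. That median hides a split in the list, as trained replicate 1 was lowest in 5 of the 13, Dhh and Col28a1 among them. Col28a1 was at 0.194, 3.89 and 5.21 CPM across trained replicates 1, 2 and 3, against 3.82, 5.71 and 3.13 CPM in the untrained ones.

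**Figure D4:**
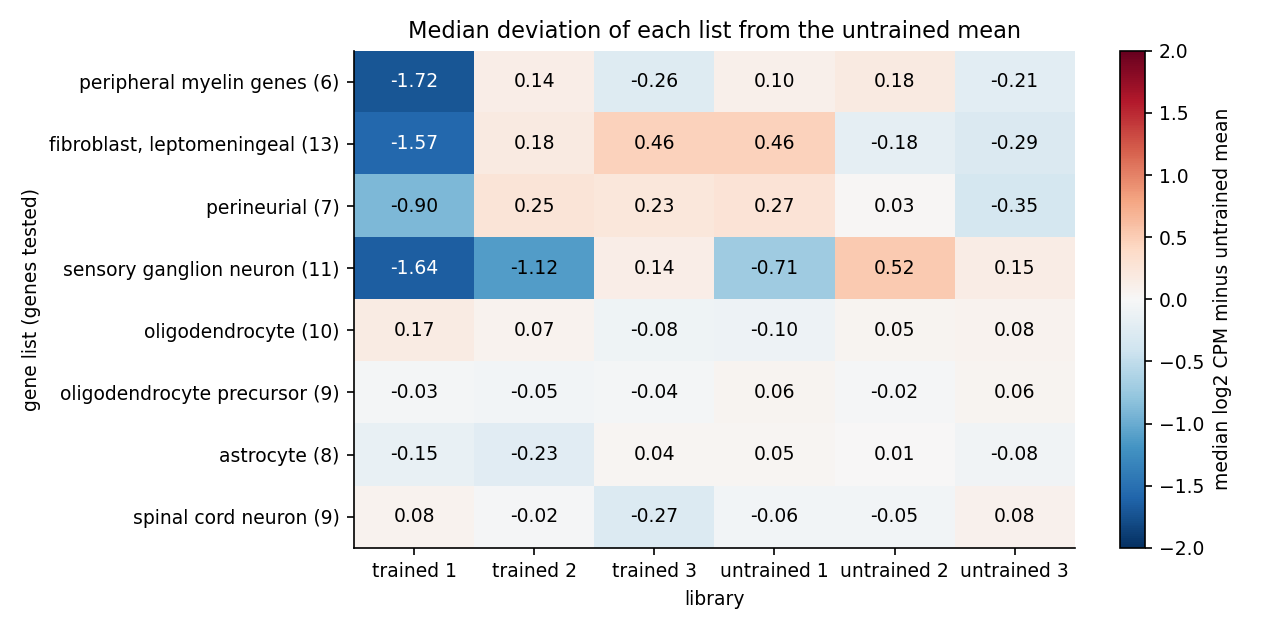
Median over each list, written in each cell, of log2 CPM minus the mean of the untrained libraries, by library (columns) and gene list (rows, number of genes tested). Trained replicate 1 is at -1.72 for the tested peripheral myelin genes and -1.57 for fibroblast genes but at 0.17 for oligodendrocyte genes. The sensory ganglion median is low in trained replicates 1 and 2 and untrained replicate 1.

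In the neuregulin pathway around Erbb3 most fold changes were negative, and 0 genes passed the test. Of 14 pathway genes besides Erbb3, 10 had a negative log2 fold change, the median was -0.13, and 4 had an unadjusted edgeR p below 0.05, each lower in trained cord, against 5.55% of all genes tested. Nrg1, the main axonal ligand, was at 37.4, 33.5 and 25.0 CPM across trained replicates 1, 2 and 3, against 38.8, 40.7 and 41.2 CPM in the untrained ones. Each trained library lay below each untrained one, as in 8.69% of all genes tested, and trained replicate 3 was lowest, so the order of libraries differed from that of Prx. Its log2 fold change was -0.33 ± 0.13 (edgeR adjusted p = 0.427).

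Erbb4, the neuregulin receptor of neurons, did not overlap either, at 43.0, 39.0 and 41.2 CPM across trained replicates 1, 2 and 3, against 44.8, 50.8 and 47.5 CPM in the untrained ones (log2 fold change -0.21 ± 0.08, edgeR adjusted p = 0.398). Erbb2, the signalling partner of Erbb3, was at 3.68, 6.24 and 8.94 CPM, against 7.59, 8.71 and 6.65 CPM in untrained replicates 1, 2 and 3. Nrg2, Nrg3 and Egfr were at log2 fold changes of -0.20 ± 0.14, 0.16 ± 0.11 and 0.07 ± 0.18. The ErbB inhibitor gene Errfi1, also induced by glucocorticoids, had the smallest p of the list, with means of 73.5 ± 4.01 CPM for trained and 91.5 ± 6.85 CPM for untrained cord (SD, n = 3 each) and a log2 fold change of -0.32 ± 0.08 (edgeR adjusted p = 0.218). It passed without trained replicate 3 (edgeR adjusted p = 0.0486), a fit in which 1.29% of all genes passed.

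**Figure D5:**
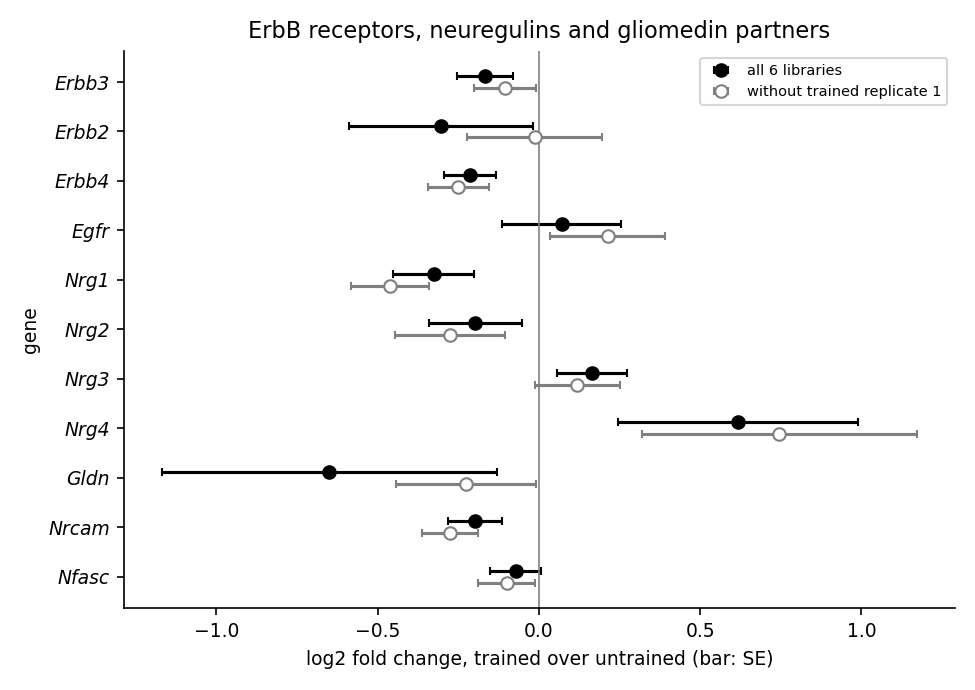
Log2 fold change, trained over untrained, with its SE for ErbB receptors, neuregulins, Gldn and the nodal partners of gliomedin, with all libraries (black) and without trained replicate 1 (open). Nrg1 lies at -0.33 and at -0.46 without that library, while Erbb2 moves to -0.01 and Gldn to -0.23.

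The axonal partners of gliomedin and the other proteins of the node and internode are found on central axons too. Of 18 such genes 16 had a negative log2 fold change, with a median of -0.10, and 0 passed. Nrcam was at 164, 145 and 138 CPM across trained replicates 1, 2 and 3, against 160, 172 and 181 CPM in the untrained ones (log2 fold change -0.20 ± 0.08, edgeR adjusted p = 0.450), and Nfasc was at -0.07 ± 0.08. Kcna1, a potassium channel of the juxtaparanode, had the smallest p, with means of 112 ± 18.9 CPM for trained and 166 ± 17.7 CPM for untrained cord (SD, n = 3 each) and a log2 fold change of -0.57 ± 0.13 (edgeR adjusted p = 0.244). It passed without trained replicate 3 (edgeR adjusted p = 0.0268), where 1.29% of all genes passed. Cadm1, an internodal adhesion protein, came next at -0.24 ± 0.08 (edgeR adjusted p = 0.365). Trained replicate 3 was lowest in 13 of these 18 genes and trained replicate 1 in 1.

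Among the partners of periaxin and the basal lamina genes, 13 of 16 had a negative log2 fold change, with a median of -0.22, and 0 passed. Trained replicate 1 was lowest in 11 of the 16, and without it the median was -0.08. Dag1, the dystroglycan gene, was at 100, 122 and 115 CPM across trained replicates 1, 2 and 3, against 151, 144 and 137 CPM in the untrained ones. The groups did not overlap, and the log2 fold change was -0.36 ± 0.08 (edgeR adjusted p = 0.209) and -0.28 ± 0.08 without trained replicate 1. Dag1 is made by astrocytes and endothelium as well. Drp2, which binds periaxin in Schwann cells, was at 42.9, 92.5 and 69.3 CPM, against 93.0, 82.8 and 63.6 CPM in untrained replicates 1, 2 and 3, and its log2 fold change of -0.23 ± 0.34 was at 0.02 ± 0.20 without trained replicate 1. Itga6, an integrin chain that binds laminin, was at -0.36 ± 0.11 (edgeR adjusted p = 0.321). Itga6 passed without trained replicate 3 (edgeR adjusted p = 0.0396), where 1.29% of all genes passed.

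Relatives of the members in the same protein families gave no call. Emp1, Emp2 and Emp3, of the family of Pmp22, had log2 fold changes of -0.39 ± 0.28, 0.06 ± 0.11 and -0.16 ± 0.28, and all 3 were lowest in trained replicate 1. Of the fatty acid-binding protein genes besides Pmp2, Fabp5 averaged 178 ± 22.7 CPM for trained and 182 ± 15.6 CPM for untrained cord, and Fabp7, of radial glia and astrocytes, 64.6 ± 15.6 CPM for trained and 51.1 ± 6.31 CPM for untrained cord (SD, n = 3 each). Fabp7 and Fabp4 (0.29 ± 0.35 on the log2 scale) had the smallest p of that family.

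Genes of the repair Schwann cell, which forms after nerve injury, gave no common direction: of 14 tested 7 had a negative and 7 a positive log2 fold change, with a median of -0.01 and 0 past the test. Jun, the transcription factor that drives the repair state in Schwann cells and is induced in many other cells, had the smallest p. It was at 89.2, 84.0 and 93.2 CPM across trained replicates 1, 2 and 3, against 116, 106 and 108 CPM in the untrained ones, with no overlap (log2 fold change -0.31 ± 0.07, edgeR adjusted p = 0.209). It passed without trained replicate 3 (edgeR adjusted p = 0.0415), where 1.29% of all genes passed. Gap43, a growth protein of axons and of repair cells, was at 0.18 ± 0.07 (edgeR adjusted p = 0.374). Scn7a, of non-myelinating Schwann cells, was at 3.87, 16.3 and 22.7 CPM, against 20.3, 23.2 and 15.7 CPM in untrained replicates 1, 2 and 3, again with trained replicate 1 lowest.

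The remaining lists describe the rest of the tissue, and 0 of their genes passed with all libraries. Among 12 myelin genes that Schwann cells share with oligodendrocytes the median log2 fold change was 0.09, led by Gal3st1 (0.32 ± 0.09, edgeR adjusted p = 0.268) and Fa2h (0.28 ± 0.09), which synthesise galactolipids of myelin. Hapln2 (0.34 ± 0.08, edgeR adjusted p = 0.209) and Aspa (-0.22 ± 0.08) led the oligodendrocyte list, and Tnr (-0.33 ± 0.08) and C1ql1 (0.39 ± 0.10) the precursor list, at medians of 0.05 and 0.02. The endothelial median was -0.16, with Pecam1 at -0.39 ± 0.11 and Flt1 at -0.36 ± 0.10. The astrocyte median was -0.14, with Slc1a3 at -0.18 ± 0.07 and Aldoc at 0.19 ± 0.08.

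Microglial and macrophage genes had a median of -0.19, with Cx3cr1 at -0.32 ± 0.10 and Lyz2 at -0.59 ± 0.24, and trained replicate 1 was lowest in 5 of 8. Cord neuron genes had a median of -0.06, with Slc6a5 at -0.24 ± 0.11 and Slc32a1 at 0.14 ± 0.08, and trained replicate 3 was lowest in 7 of 9. Of the cord position genes Hoxb8 was at 0.33 ± 0.08 and Hoxc9 at 0.32 ± 0.11, at a list median of 0.02. Forebrain genes summed to at most 6.86 CPM in trained and 4.35 CPM in untrained libraries, with Neurod6 at 0.58 ± 0.25. Skeletal muscle genes summed to 6.70 to 8.29 CPM in trained and 2.17 to 7.65 CPM in untrained libraries. Tnnt3 was at 1.25 ± 0.51 and Actn3 at 0.69 ± 0.31. Fa2h, Hapln2, Cx3cr1 and Hoxb8 passed in edgeR when trained replicate 3 was left out, a fit in which 1.29% of all genes passed.

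The files do not say how reads shared by overlapping genes were counted. Genes that overlap Prx, Ncmap, Cdh19, Gldn, Erbb3 and Pmp2 held at most 27 reads each over all 6 libraries, and no gene overlaps Pmp22.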

How the data were processed

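Per the labels' protocols, RNA was isolated by TRIzol and read as 150 bp pairs. What the authors deposited was raw counts of reads for each gene, without normalization. Per the submitters' processing notes, Bowtie 0.12.2, mm8 and mm9 were involved, in roles not stated. The counter, and whether strand was used, is not given in the sources used here. Gene ends equal those of GENCODE M21 (GRCm38) for 98.3% of the 54495 gene IDs found there, all 7 members included.

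The main test was edgeR 4.0.16 under R 4.3.3 (TMM, filterByExpr, robust quasi-likelihood, no covariate), with 16909 genes kept. Each SE is the absolute log2 fold change divided by the root of F. The code was tested on simulated counts. Log2 CPM used a prior count of 2, and RPKM the deposited gene length. Alternatives were RLE and upper-quartile scaling, other filters, DESeq2 1.42.0, limma-voom 3.58.1, a replicate block and leaving out each library.

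Members, the 22 gene lists and the motifs were chosen with earlier results of these data known. Genes were named by rule: the members, their partners in family or complex, the 2 of smallest p in each list and the 5 most alike. Some genes that the rule takes are not reported here. Dcn, Avil, Scn10a, Krt19, Hoxd10, Scn7a, Col28a1, Calca and P2rx3 were chosen after their values were seen. Floors cover counting error only.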

Additional observations from a re-analysis of the deposited data

How the results depend on the processing

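Of the 6 tested members, 0 passed over all genes in any of the 15 alternative settings, which comprised leaving out each library, other scalings, filters, tools, the replicate block and adjusted p thresholds of 0.01 and 0.1. Of 78 log2 fold changes under the alternatives 75 kept their sign. The 3 that reversed were those of Prx, Pmp22 and Ncmap without trained replicate 1, at 0.094, 0.0053 and 0.30. Leaving out each library gave -1.57 to 0.094 for Prx, -0.80 to 0.0053 for Pmp22 and -0.91 to 0.30 for Ncmap. For Prx limma-voom gave -2.85 and the replicate block -1.16, against -0.51 in edgeR, and for Ncmap they gave -1.25 and -0.65, against -0.26. The cause was not tested.

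The count of genes called over all genes, 10, was 276 with no filter on low counts, 92 in DESeq2, 18 at an adjusted p below 0.1, 5 with the replicate block and 4 to 221 when a library was left out (21 without trained replicate 1, 4 without trained replicate 2 and 221 without trained replicate 3). Same-numbered trained and untrained libraries did not deviate together (correlations of -0.18, -0.09 and -0.13 across genes). Libraries of different number were not compared, so these values cannot settle whether the numbers pair the libraries, and the labels do not say. The block changed no member's call. With 3 libraries a group and 1 far from the others, the SE of Prx was 1.34 on the log2 scale, and a change of the size of its fold change could not be detected. Among the members, Pmp2 had too few reads to be tested, and whether depth was the reason was not tested.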
